A study of Mus musculus with 8 samples.

Results

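The lower part of glycolysis and its exit to lactate or to the mitochondrion were followed through 9 genes, Gapdh, Pgk1, Pgam1, Eno1, Eno3, Ldha, Ldhb, Pdk1 and Pdha1, in single myocardial cells of the early mouse heart. The genes were chosen by name, and every array probe that carries 1 of these symbols was taken, which gave 19 of the 55681 probes on the array. Gapdh had 9 probes, Ldha had 3 and the other 7 genes had 1 each. The cells came from the heart tube of E8.5 embryos with 9 somites, the product of a cross of Mesp1Cre/+ males with Sox17flox/flox females, and the study's methods place them in the ventricle. WT denotes 4 cells of the genotype Mesp1+/+_Sox17flox/flox, in which both Sox17 alleles are floxed and no Cre is present. KO denotes 4 cells of the genotype Mesp1Cre/+_Sox17flox/flox, which carry the same floxed alleles and a Cre inserted at Mesp1, a gene of the early mesoderm, so that 1 Mesp1 allele is also altered in KO alone. Each array held the amplified cDNA of 1 cell, hybridised as a Cy3-labelled target to 60-base probes. The labels name no embryo or litter for any cell. Each genotype was therefore 1 sample of 4 cells, no test was made, and each SD is the spread between cells.

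Glycolysis splits glucose into pyruvate in the cytosol. GAPDH and PGK1 carry out the first energy-yielding steps of its lower part, PGAM1 moves the phosphate group of 3-phosphoglycerate, and the enolases ENO1 (widespread) and ENO3 (muscle) form phosphoenolpyruvate. Lactate dehydrogenase, built from LDHA and LDHB subunits, interconverts pyruvate and lactate, whereas the pyruvate dehydrogenase complex, with PDHA1 as a catalytic subunit, feeds pyruvate to the mitochondrion and is switched off by the kinase PDK1. The early embryonic heart is known to rely heavily on glycolysis before it matures towards mitochondrial fuel use, and several of these genes are well-known targets of the hypoxia factor HIF-1.

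Which stretch of a transcript a probe reads mattered for the results, so the probes of the 2 genes with several probes are shown first, 5′ to 3′. The first strand of cDNA was primed on the poly(A) tail, and capitals mark AATAAA, the sequence of the common polyadenylation signal. The 3 Ldha probes lie in order along the plus strand of chromosome 7 (mm9, positions per the files), 4284 bases from the start of the 5′ probe to the start of the middle probe and 3643 bases from there to the start of the 3′ probe, of which 30 bases are printed. No gene models of mm9 were used here, so no exon or UTR is given for them.
Ldha 5′ probe, chr7:54103010-54103069: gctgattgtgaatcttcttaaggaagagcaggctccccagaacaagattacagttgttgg
Ldha middle probe, chr7:54107294-54107353: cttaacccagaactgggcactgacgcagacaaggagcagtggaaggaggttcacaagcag
Ldha 3′ probe, chr7:54110937-54110996: cccaagtgtcatgccaAATAAAaccttgaa

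Of the 9 Gapdh probes, 4 held AATAAA (the 3′-end probes) and 5 did not (the inner probes), and both kinds were numbered from the highest to the lowest mean signal. The 3′-end probes shared an unbroken run of 18 bases around the signal, which is shown with the 5 inner probes because the cells differed along them.
Gapdh 3′-end probes, shared run: ttgaataccatcAATAAA
Gapdh inner probe 1: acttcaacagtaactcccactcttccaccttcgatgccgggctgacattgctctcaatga
Gapdh inner probe 2: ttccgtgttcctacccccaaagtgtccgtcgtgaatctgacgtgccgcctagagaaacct
Gapdh inner probe 3: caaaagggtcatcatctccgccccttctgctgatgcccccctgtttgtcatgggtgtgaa
Gapdh inner probe 4: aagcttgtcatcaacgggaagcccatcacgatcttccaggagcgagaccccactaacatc
Gapdh inner probe 5: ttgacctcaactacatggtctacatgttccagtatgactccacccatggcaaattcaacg
In the known coding order of Gapdh, inner probe 5 lies nearest the 5′ end and inner probe 1 nearest the 3′ end. The files placed 0 of the 9 probes on chromosome 6, where the gene lies, but at chr7:59003199-59003257, chr8:47339831-47339890, chrX:12902948-12903007 and chr7:30640463-30640523 for 3′-end probes 1 to 4 and at chr15:84697591-84697650, chr8:94212520-94212579, chr9:115314610-115314669, chr5:13043186-13043245 and chr17:25464399-25464458 for inner probes 1 to 5. In addition, 7 of the 9 listed a transcribed pseudogene among their targets, 6 different ones in all. The Gapdh signals may therefore combine the gene and near-identical copies, as may that of the Eno1 probe, which the files placed on chromosome 2 (80678866 to 80678925) although the gene lies on chromosome 4.

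The labelled cell type was checked on marker genes. All 10 myocardial marker genes were detected in each of the 8 cells. Of 13 endothelial and endocardial markers, each WT cell showed 3 to 4 and each KO cell 2 to 4, and 6 of the 13 were detected in at least 1 cell. On 1 probe Kdr read 443 to 693 and was well above background in every cell, and on its other probe it read 3230 in KO cell 2 and the floor of 50 elsewhere. Egfl7 read 3666 in WT cell 3 and 1273 in KO cell 2, and Plvap reached at most 99.3. Pecam1 was well above background in 4 of 4 WT and 2 of 4 KO cells, although its values stayed at the floor. Etv2 and Tie1 were detected in some cells, also at the floor. The other 7 markers, among them Cdh5, Tek and Emcn, were detected in 0 of 8 cells. The part of these signals in the results was not tested. Of 7 erythroid markers, 0 to 1 were detected per cell, and likewise 0 to 1 of 6 endoderm and 0 to 1 of 5 proepicardial markers. Probes for Sox17 (2 probes) and Mesp1 (1 probe) were detected in 0 of 8 cells, so the deletion could not be checked on these arrays. Between 17.1% and 26.0% of all probes read well above background in a cell. The arrays of the 2 genotypes were hybridised on separate slides, 1 per genotype. Slide and genotype cannot be told apart in any difference below.

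Lower glycolysis was read in every cell of both genotypes. Detection in a cell means that the scanner software flagged the spot as well above background, and a probe detected throughout WT or throughout KO counted as present. By that rule 16 of the 19 probes were present, and 15 of them, which cover the 6 genes Gapdh, Pgk1, Pgam1, Eno1, Eno3 and Ldha, were detected in all 8 cells. The 3 remaining probes, for Ldhb, Pdk1 and Pdha1, were detected in some cells of both genotypes and present in neither. Between 7 and 9 of the 9 genes were detected in each WT cell, and between 7 and 9 in each KO cell.

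**Figure D1:**
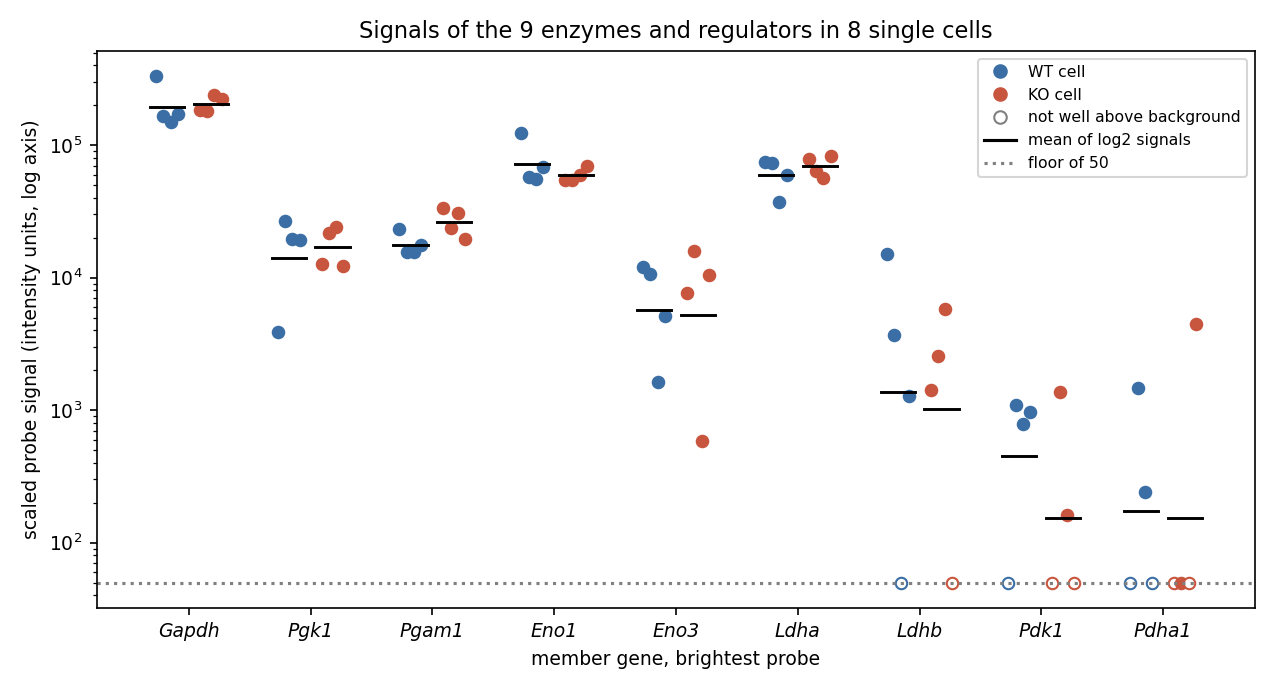
Scaled signal (intensity units, log axis) of the brightest probe of each of the 9 genes in the 4 WT cells (blue) and the 4 KO cells (red). Open circles are cells not well above background, black bars are means of log2 signals, and the dotted line is the floor of 50; WT and KO cells overlap for all 9 genes, and only Ldhb, Pdk1 and Pdha1 reach the floor.

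No member probe reached the 5-fold rule. Of the 16 present probes, 0 were at least 5-fold higher and 0 at least 5-fold lower in KO, where 1.75% of the 7467 present probes on the array were at least 5-fold higher and 6.88% at least 5-fold lower. With 16 probes, 9 of them for Gapdh, a count of 0 lies near these background shares and is no result about the members. At 2-fold, 1 of the 16 was higher (the Ldha 5′ probe), against 11.4% of present probes, and 0 were lower, against 16.3%. Pdk1, at -1.56, was not present and so lies outside these counts. The WT and KO ranges overlapped for all 19 member probes, and 5.53% of present probes had ranges that did not, so this count too lies near the background. With each gene read by its brightest probe, 4 of the 9 genes were higher and 5 lower in KO, with a median log2 difference (KO minus WT, as in all differences given) of -0.13, against 0.00 over 5409 genes chosen in the same way. The probes detected in all 8 cells had a median difference of 0.15, a baseline against which small differences below are read. This baseline ran from 0.00 with scaling over all probes to 0.32 with quantile normalization and 0.34 with a floor of 1. Detected probes can still read at the floor. Of the 5301 detected in all 8 cells, 1485 had a gene symbol and were above the floor in every cell. Floored values are tied, so the baseline is not that of bright probes alone.

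**Figure D2:**
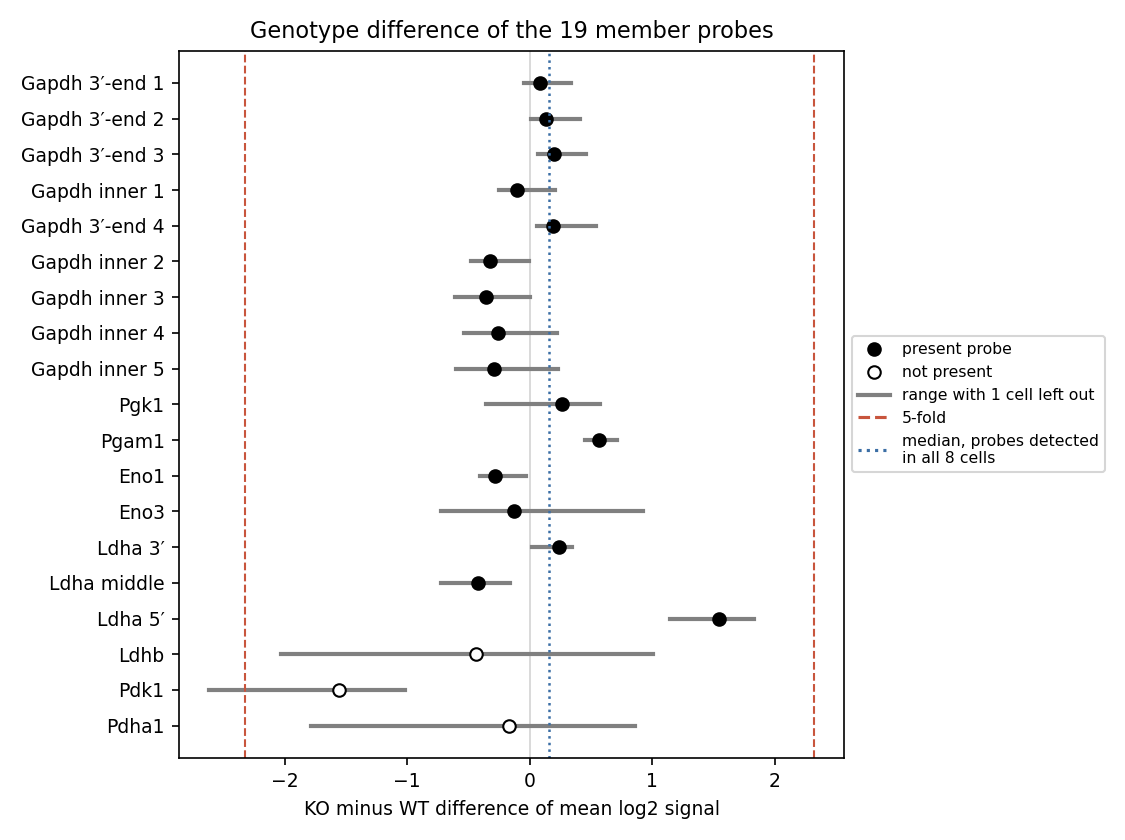
KO minus WT difference of mean log2 signal for the 19 probes. Filled points are present probes, open points are not, grey bars span the values with 1 cell left out in turn, dashed lines mark 5-fold and the dotted line is the median of 0.15 over probes detected in all 8 cells. All 19 points lie inside the 5-fold lines, and the widest bars belong to Ldhb, Pdk1, Pdha1 and Eno3.

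GAPDH oxidises glyceraldehyde 3-phosphate. On 3′-end probe 1 it read 331982, 166948, 148517 and 171585 in the WT cells (1 to 4, in the order used throughout) and 183751, 179763, 238953 and 224541 in the KO cells. WT cell 1 stood above all other cells, and the KO cells lay between it and the rest of WT. The difference was 0.08, with an SD of 0.53 in WT and 0.21 in KO. WT cell 1 was the highest of the 8 cells on all 9 Gapdh probes.

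The sign of the Gapdh difference, read against 0, followed the kind of probe. Each of the 3′-end probes was slightly higher in KO, by 0.08 to 0.20 on the log2 scale, and each of the 5 inner probes slightly lower, from -0.36 to -0.11. Relative to the baseline of 0.15 the 3′-end probes lay between -0.07 and 0.04, on both sides of it. The inner probes lay between -0.51 and -0.26 relative to it. Under the scaling over all probes the 3′-end probes turned lower too, from -0.27 on 3′-end probe 1 to -0.15 on 3′-end probe 3, and with medians of cells in place of means all 9 probes were higher, by 0.04 to 0.60. The sign of Gapdh as a gene was not settled. These differences were smaller than the spread between WT cells, whose SD was 0.53 to 0.71 on the 3′-end probes and 0.53 to 0.66 on the inner probes.

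A single cell set the contrast between the 2 kinds of probe. With each cell expressed against the mean of the 8 cells on the same probe, KO cell 1 read -0.12, -0.02, 0.00 and 0.38 on 3′-end probes 1 to 4, close to the other cells. On inner probes 1 to 5 it read -0.22, -0.89, -1.25, -1.58 and -1.71, a fall that grew with the distance from the 3′ end. It was the lowest of the 8 cells on 4 of the 5 inner probes and on 0 of the 3′-end probes. KO cell 4 ran the other way, from -0.03 on inner probe 1 to 0.78 on inner probe 5. WT cell 1 was steady, at 0.97 to 1.13 on the inner probes.

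The mean of the inner probes minus the mean of the 3′-end probes, a contrast chosen after the values were seen, was then expressed against its own mean over the 8 cells. It was 0.25, 0.15, 0.25 and 0.19 in the WT cells, with an SD of 0.05, and -1.19, -0.03, 0.09 and 0.30 in the KO cells, with an SD of 0.67. The WT cells sat together inside the KO range. The KO minus WT difference of this contrast was -0.42 and became -0.09 without KO cell 1.

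**Figure D3:**
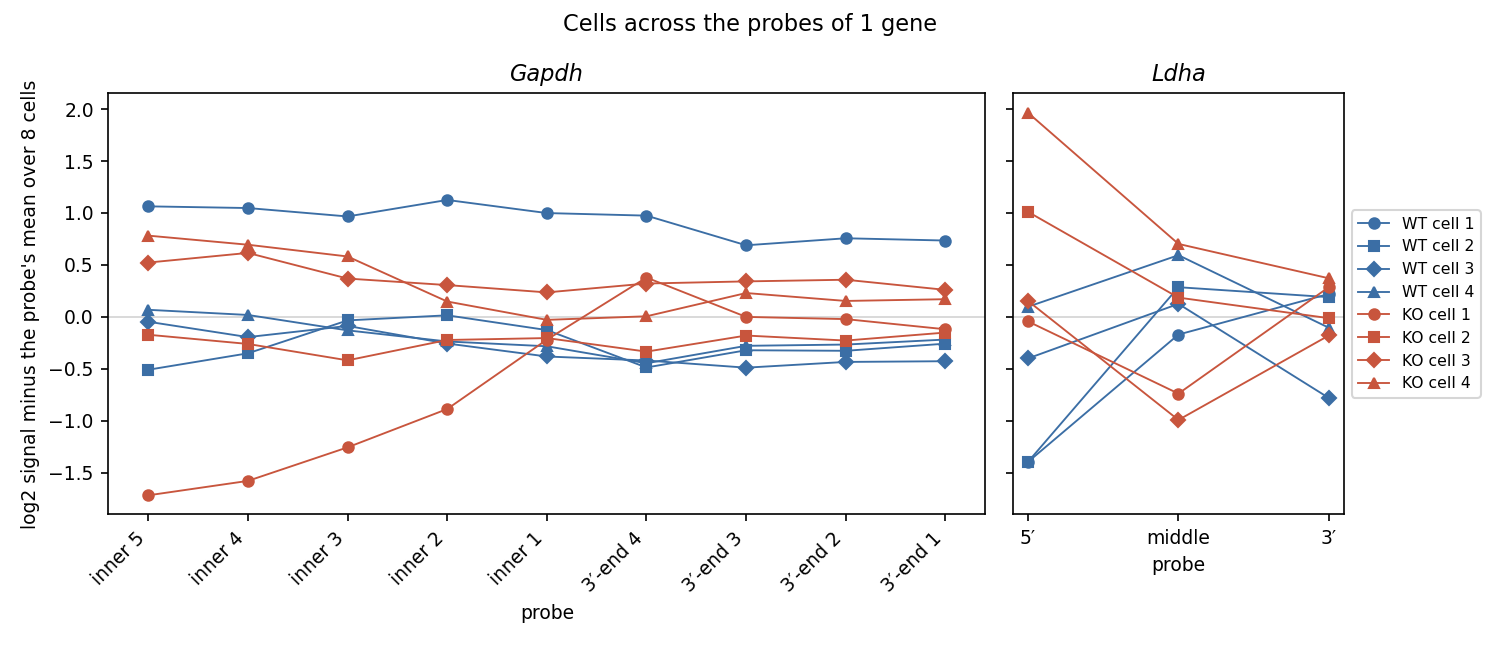
Log2 signal of each cell minus the mean of the 8 cells on the same probe, for the 9 Gapdh probes (inner probes from the 5′-most to the 3′-most, then the 3′-end probes) and the 3 Ldha probes. Blue lines are WT cells and red lines KO cells; KO cell 1 drops to -1.71 on Gapdh inner probe 5 while it stays near 0 on the 3′-end probes, and WT cell 1 lies at the top of every Gapdh probe.

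A related contrast, the most upstream minus the most downstream probe, was formed for 58 other genes that have a well-separated upstream and downstream probe. It was not a difference between means of inner and 3′-end probes, so its size cannot be compared directly with that of Gapdh. The median deviation over these genes was -0.04 in KO cell 1, the lowest of the 8 cells, which ran up to 0.10. The median of the contrast itself, before each gene was set against its own mean, was -1.18 in KO cell 1 and -0.82 to -0.46 in the other 7 cells. KO cell 1 was thus lowest by both measures. Whether the fall on Gapdh was particular to that gene, and whether it came from the gene or its copies, was not tested.

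PGK1 makes the first ATP of the pathway. Its single probe (chrX:103398640-103398699, mm9) read 3891, 26779, 19537 and 19387 in the WT cells and 12766, 21647, 24102 and 12308 in the KO cells. WT cell 1 was the lowest of all 8, below every KO cell, while WT cell 2 was the highest. The difference was 0.26, with an SD of 1.26 in WT and 0.50 in KO, and it turned to -0.36 without WT cell 1.

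In the setting reported, Pgam1, whose product links the PGK and enolase steps, differed by more than the spread between cells. Its probe (chr19:41992898-41992957, mm9) read 23363, 15506, 15504 and 17500 in the WT cells and 33297, 23645, 30966 and 19465 in the KO cells. KO cells 1, 2 and 3 lay above all 4 WT cells and KO cell 4 lay among them. The difference was 0.57 (1.48-fold), beside an SD of 0.28 in WT and 0.36 in KO, and it stayed between 0.45 and 0.71 when any 1 cell was left out. Relative to the baseline of 0.15 it was 0.41. The SDs were not recomputed under other scalings, so those of the setting reported are used next. With scaling over all probes the Pgam1 difference was 0.22, smaller than either of these SDs, beside a baseline of 0.00. With no scaling it was 0.28, smaller than that KO SD, beside a baseline of 0.01. With quantile normalization it was 0.30, no more than the baseline of 0.32 in that setting.

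The enolases differed in how evenly cells carried them. The widespread form Eno1 read 123210, 57759, 55871 and 68707 in the WT cells and 54745, 54805, 59757 and 68985 in the KO cells. WT cell 1 was again the highest, and the other 7 cells lay close together. The difference was -0.29 with an SD of 0.53 in WT and 0.16 in KO, and without WT cell 1 it was -0.03.

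The muscle form Eno3 (chr11:70475953-70476012, mm9, a probe with AATAAA) read 11964, 10663, 1634 and 5121 in the WT cells and 7707, 15786, 588 and 10546 in the KO cells. Each genotype held 1 low cell, WT cell 3 and KO cell 3. The highest cell was 26.8-fold above the lowest, where the median over all probes detected in all 8 cells was 4.88-fold, and 15.7% of those probes spanned more. The difference of -0.13 was far inside the SDs of 1.32 and 2.15, and it moved to -0.73 when WT cell 3 was dropped and to 0.93 when KO cell 3 was dropped.

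Spans of other members depended on the gene and the probe. The highest cell was 2.15-fold above the lowest for Pgam1, 2.22-fold for the Ldha 3′ probe, 2.24-fold for Gapdh 3′-end probe 1 and 2.25-fold for Eno1, and 18.0% of the probes detected in all 8 cells were narrower than Pgam1. The 9 Gapdh probes spanned 2.24-fold to 6.86-fold, the widest on inner probe 5, the Ldha middle probe 3.23-fold, and Pgk1, with 6.88-fold, was wider than 62.4% of them. Over the 15 member probes detected in all 8 cells the median SD was 0.55 in WT and 0.36 in KO, beside 0.69 and 0.66 over all such probes. Gapdh gave 9 of the 15, which are not independent and all had WT cell 1 as their highest cell. The 2 member medians therefore mostly describe 1 gene. The spans and SDs over all probes, here and for Eno3, include probes with cells at the floor, which narrows them. How far this moved the shares was not tested.

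LDHA is the lactate dehydrogenase subunit of muscle. Its 3′ probe read 75003, 73386, 37453 and 59818 in the WT cells and 78529, 63787, 56882 and 83204 in the KO cells. The cells overlapped, with WT cell 3 alone below the rest. The difference was 0.24 with an SD of 0.47 in WT and 0.26 in KO, and it turned to -0.11 with scaling over all probes, -0.05 with no scaling and -0.01 with quantile normalization.

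The middle Ldha probe was lower in KO under all 5 scalings. It read 3934, 5394, 4828 and 6678 in the WT cells and 2654, 5033, 2227 and 7199 in the KO cells, so that KO cells 1 and 3 fell below every WT cell and KO cell 4 lay above them. The difference was -0.42 with an SD of 0.32 in WT and 0.79 in KO.

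The 5′ Ldha probe was dim. It read 50, 50, 99.7 and 141 in the WT cells and 128, 265, 146 and 513 in the KO cells, where 50 is the floor at which values have no order. It was detected in 3 of 4 WT cells and in 4 of 4 KO cells and was present through KO, and 3 KO cells lay above all WT cells while KO cell 1 lay below WT cell 4. The difference was 1.55, larger than the SDs of 0.75 and 0.92, and the 2 floored WT cells set part of it. With a floor of 1 it was 2.97 and with quantile normalization 2.61, both past 5-fold, so its size was decided by how dim signals were treated. The study's own list of higher probes holds this probe, so it is not independent evidence of a direction for Ldha.

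The 3 Ldha probes therefore gave different differences for 1 gene. The middle minus the 3′ probe, expressed against its mean over the 8 cells and chosen after the values were seen, was -0.39, 0.10, 0.91 and 0.70 in the WT cells and -1.03, 0.20, -0.81 and 0.33 in the KO cells, and the genotypes overlapped. KO cell 1 was the lowest here too, but KO cell 3, which had no such fall on Gapdh, was almost as low. The difference was -0.65, about the size of the SDs of 0.59 and 0.69, and ran from -0.89 to -0.42 as single cells were left out.

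Ldhb encodes the heart subunit of lactate dehydrogenase. Its probe (chr6:142438770-142438829, mm9, minus strand) read 15086, 3667, 50 and 1281 in the WT cells and 1419, 2564, 5785 and 50 in the KO cells. It was detected in 3 of 4 cells of each genotype, and 1 cell of each, WT cell 3 and KO cell 4, was at the floor. The difference of -0.44 ran from -2.03 to 1.01 as single cells were left out, so no direction could be read.

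Both genes at the mitochondrial gate were seen in some cells only. Pdk1 (chr2:71739688-71739747, mm9), whose product inhibits pyruvate dehydrogenase, read 50, 1090, 790 and 968 in the WT cells and 50, 1369, 162 and 50 in the KO cells. It was detected in 3 of 4 WT cells and 2 of 4 KO cells, and its highest value was in KO cell 2. The difference of -1.56 was smaller than the SDs of 2.13 and 2.25, and it depended on the setting. It was past 5-fold with medians of cells (-3.28), with a floor of 1 (-2.75), without WT cell 1 (-2.62, where Pdk1 would count as present) and without KO cell 2 (-2.61), and it was -0.81 with quantile normalization.

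Pdha1 (chrX:156560665-156560724, mm9, minus strand) read 50, 1464, 241 and 50 in the WT cells and 50, 50, 50 and 4443 in the KO cells. It was detected in 2 of 4 cells of each genotype, and the difference was -0.17 with SDs of 2.32 and 3.24. It was -1.79 without KO cell 4 and 0.86 without WT cell 2, so no direction could be read. With 1 cell per array, a transcript missing from the cell and a transcript lost in amplification cannot be told apart.

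The members did not rise and fall together from cell to cell. Over the 8 cells and the 6 genes detected in all of them, the 15 pairwise Pearson correlations of log2 signal ran from -0.88 (Pgk1 with Eno1) to 0.83 (Gapdh with Eno1), with a median of 0.09. Gapdh and Pgk1, neighbouring steps, gave -0.77, and Eno3 with Ldha gave 0.67. These values describe 8 points that share array scaling. Without WT cell 1, high for Gapdh and Eno1 and low for Pgk1, the first 3 became -0.27, 0.38 and -0.22 over 7 cells, and Eno3 with Ldha became 0.64. The 36 pairs of Gapdh probes, which read 1 gene and its copies, gave 0.27 to 0.99 with a median of 0.78.

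The probes most like 3 of the members over the 8 cells were sought among 1485 probes with a gene symbol that were detected and above the floor in every cell. For Ldha they belonged to Elp5 (r = 0.89), Tmc8 (0.84) and Nron (0.84). For Pgk1 they were Pabpc1 (0.93), Suv39h2 (0.89) and Psme3 (0.88). For Gapdh they were Gm12070 (0.99), Rps27a (0.98) and Gm6981 (0.98), and both Gm symbols are pseudogenes that Gapdh probes list as targets. These are the highest of 1485 values of r, each over 8 points, and how high chance alone would reach was not tested. On the Pgk1 probe WT cell 1 lay at -1.99 from the mean of the 8 cells, so that cell weighs heavily in its values.

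Among the other genes of the lower pathway, Pkm and Slc16a3 had moderately higher means in KO, for Slc16a3 inside the spread between WT cells. Of 13 further genes of lower glycolysis and lactate handling, 5 had present probes, 7 in all, and 0 of the 7 were 5-fold apart in either direction. All 7 were higher in KO under each of the 5 scalings, beside 51.0% of all present probes in the setting reported. That share also covers probes detected throughout 1 genotype only, whereas the 7 were detected in all 8 cells, where the median was 0.15. The share higher in KO among such probes was not counted, and Pkm and Slc16a3 each gave more than 1 of the 7. The Slc16a1 probe differed by 0.15, no more than the baseline. It and the Slc16a7 probe were at or near the floor in most cells. Probes that were not present included lower ones, such as Bpgm at -0.97, which read above the floor in WT cell 3 alone. The median difference of the 7 present probes was 0.68, against a baseline of 0.15, and became 0.43 against 0.32 with quantile normalization. The pyruvate kinase gene Pkm, which catalyses the last step, read 51907, 30705, 27471 and 35509 in the WT cells and 69777, 56819, 70397 and 36270 in the KO cells on its brighter probe. KO cells 1, 2 and 3 were above all WT cells and KO cell 4 was among them, the same arrangement as for Pgam1. The difference was 0.68 with an SD of 0.40 in WT and 0.45 in KO, and its other probe gave 0.65. With scaling over all probes it was 0.33, with no scaling 0.39 and with quantile normalization 0.39. Each was smaller than either SD of the setting reported, and the SDs were not recomputed under these scalings. The lactate exporter gene Slc16a3 gave 0.68 on both of its probes, with SDs of 1.43 in WT and 0.56 in KO on the brighter. WT cell 1 was its highest cell, above every KO cell. The muscle mutase gene Pgam2 was at the floor in WT cell 2 and KO cell 2 and reached 14742 in WT and 32372 in KO. Its difference of 0.66 was far inside the SDs of 3.64 in WT and 4.34 in KO.

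Upstream, 14 probes of 9 genes among 19 for glucose transport and upper glycolysis were present, 1 of them 5-fold higher and 1 lower in KO. Slc2a3, a glucose transporter, read 50, 3968, 50 and 50 in the WT cells and 13178, 2823, 2664 and 10475 in the KO cells. It was detected in 1 of 4 WT cells and 4 of 4 KO cells, and WT cell 2 lay within the KO range. Pfkm, the muscle phosphofructokinase, read 3316, 1981, 3030 and 3733 in the WT cells and 50, 50, 50 and 2150 in the KO cells, with 4 and 2 cells detected and KO cell 4 inside the WT range. Both differences (5.25 and -4.52) rest on values at the floor, and both genes were selected by the study on these arrays.

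For the fate of pyruvate, 3 probes of 2 genes among 13 were present and 0 were 5-fold apart. Pdhb, the partner subunit of Pdha1, differed by 1.32 and 1.34 on its 2 probes with SDs of 2.84 to 3.18, since WT cell 1 and KO cell 1 were far below the others. Among 8 genes that regulate HIF, Epas1 alone had a present probe, with a difference of 0.04. Hif1a, the oxygen-regulated subunit of HIF-1, was detected in 3 of 4 cells of each genotype on 1 of its probes and read 50, 185, 356 and 216 in the WT cells and 50, 61.9, 50 and 50 in the KO cells. These dim values differed by -1.63, and 4 of the 8 were at the floor.

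**Figure D4:**
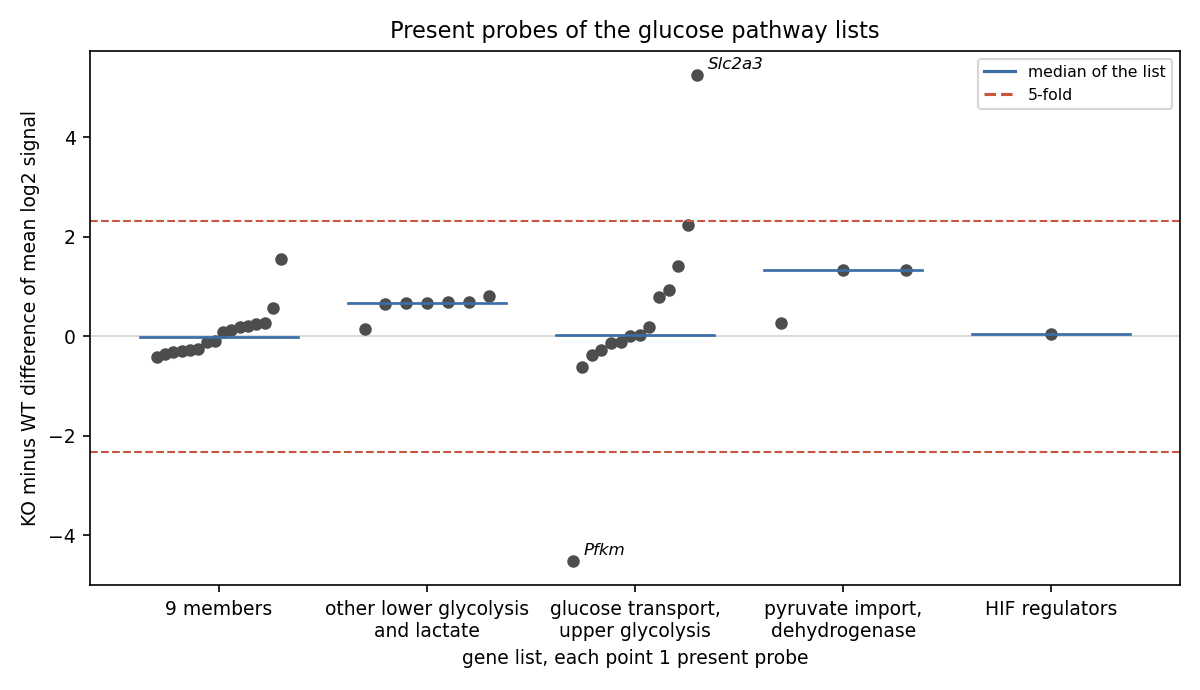
KO minus WT difference of mean log2 signal for each present probe of the 9 genes and of 4 further lists. Each point is 1 probe, sorted within its list, blue bars are list medians and dashed lines mark 5-fold; Slc2a3 at 5.25 and Pfkm at -4.52 are the points outside the lines, and the members lie between -0.42 and 1.55.

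The promoters of the 9 genes were searched for a short sequence feature that the choice of genes did not use. The core letters of the hypoxia response element, ACGTG or GCGTG, were sought on both strands of windows from 250 bases before to 50 bases after each annotated start (RefSeq, GRCm38.p6), and a site read on both strands counts on each. They occurred in 12 of the 13 windows of the 9 genes (92.3%) and in 43.8% of 32851 windows over all genes. Windows of 1 gene are not independent, and 2 of the 3 Eno1 windows overlap almost entirely. One Ldha window held 7 copies and the other 2, Pdha1 held 4, Gapdh and Pgam1 held 3 each, and the second Pdk1 window held 0. Base composition was not matched, and a match is a run of letters and not a binding site.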

How the data were processed

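Expression was measured in 8 single cells, 4 per genotype, on 1-colour arrays of 60-base probes. The deposited values were spot intensity on a linear scale written by Agilent Feature Extraction, which had subtracted background and set flags (the file headers give version 12.0.2.2). Per the methods, the authors set values under 50 to 50 and scaled each array on its 50th percentile.

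Here, control spots and 146 to 220 outlier-flagged spots per array were left out, 0 spots were saturated, and log2 signals were averaged per probe. Arrays were shifted by -0.76 to 0.68 to a common 50th percentile over the 5301 probes detected on all 8 arrays, and values under 50 were set to 50. The 5-fold rule is 2.32 on the log2 scale. The code was tested on simulated data with less noise than the median spread between cells here and with changes past 5-fold. Recovery was scored on probes well above the floor, so it does not cover dim probes or small differences. Python 3.11.15, pandas 2.3.3 and limma 3.58.1 (normexp) were used. Members and gene lists were chosen with earlier results of these data known. All 9 members were named, other list genes when a present probe was 5-fold apart, and Pkm, Slc16a1, Slc16a3, Slc16a7, Bpgm, Pgam2, Pdhb, Epas1, Hif1a and the marker genes after their values were seen. The number of arrays limits the precision.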

Additional observations from a re-analysis of the deposited data

Results flagged for a closer look

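In 4 of the 31 sets of 4 cells that were examined, 1 cell stood apart from the other 3, by a gap that, as a share of the whole log2 range, was above Dixon's critical value for 4 values. Chance gives about 1 such set in 20, the Gapdh probes are not independent of each other, and 7 further sets with a cell at the floor were not examined. All 4 were WT cell 1. It was the highest WT cell for Gapdh on 3′-end probe 2 (gap 0.859 of the range), on 3′-end probe 4 (0.954) and on inner probe 3 (0.912), where it read 307538, 144671 and 32323. It was the lowest WT cell for Pgk1, at 3891, with a gap of 0.833 of the range. Gapdh and Pgk1 thus deviated in opposite directions in the same cell, and why was not tested.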

How the results depend on the processing

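The counts, the median and the 19 probe differences were recomputed under 8 other settings and with each of the 8 cells left out. Of 304 probe differences, 301 moved by less than the pooled SD between cells, and the 3 others moved by more. They were the Ldha 5′ probe with quantile normalization (2.61) and with a floor of 1 (2.97), and Pgam1 with scaling over all probes (0.22). With so few cells per genotype, leaving out 1 cell cannot move a difference by as much as the pooled SD, whatever the values. The count of 301 therefore says nothing about left-out cells and bears only on the 8 other settings. The count of member probes at least 5-fold higher in KO, 0 in the setting reported, was 1 with quantile normalization, 1 with a floor of 1 and 1 at a 2-fold rule, each time the Ldha 5′ probe, and stayed at 0 to 0 as cells were dropped singly. The count at least 5-fold lower, also 0, was 0 to 1 as cells were dropped, the 1 being Pdk1 without WT cell 1, where 8644 probes counted as present. The median over the member genes, -0.13, lay between -0.23 and 0.23 as cells were dropped and between -0.39 (scaling over all probes) and 0.16 (the 6 genes detected in all 8 cells), within the spread between cells, so it had no settled sign. The count of all present probes at least 5-fold lower was 919 without WT cell 1 against 514, and at least 5-fold higher 248 without KO cell 2 and 236 without KO cell 3 against 131. The array slide could not be fitted as a block, since 0 slides held both genotypes. No paired analysis was possible because no test was made and the replicate numbers only name cells. Signals near the floor, those of the Ldha 5′ probe, Pdk1 and Pdha1, limit what can be read.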
